A study of Mus musculus with 6 samples.

Results

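Genes that mark neutrophils and blood monocytes were followed across RNA sequencing libraries of adult mouse microglia, the resident macrophages of the brain. The set held 32 genes, chosen by symbol as markers of granulocyte stages and of inflammatory monocytes, of 55414 genes in the deposited table, and each symbol matched 1 row. Each of the 32 genes also passed the filter on low counts, which kept 17739 genes. The mice were C57BL/6, 10 months old and untreated as far as the labels say. They carried either the wild type genotype (WT, 3 libraries) or the genotype labelled Selk-/-, a knockout of Selenok (3 libraries). Whether the knockout is limited to a cell type, how the microglia were isolated, and whether each library came from 1 animal are points not given in the sources used here, so the spread between libraries may be partly technical. Replicate numbers are names only and pair no libraries.

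Neutrophils are short-lived granulocytes made in the bone marrow, and their granule proteins are transcribed in waves as the cells mature. Promyelocytes express the proteases and the peroxidase of azurophil granules, myelocytes and metamyelocytes express the proteins of specific granules, and later stages express those of gelatinase granules. Mature cells in blood carry mainly transcripts of surface receptors and of the cytosolic calcium-binding proteins S100A8 and S100A9. Inflammatory monocytes leave the marrow through the chemokine receptor CCR2. Both cell types are scarce in the healthy brain parenchyma, while blood vessels, the meninges and the marrow of the skull hold them.

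Total counts per library were 21112082 to 28123871. Values are CPM, counts scaled to the library total after TMM, a correction for composition, unless stated otherwise. A gene with 3 counts was at 0.107 to 0.142 CPM when the total was not TMM-scaled. Selenok was at 112 to 125 CPM in WT and at 108 to 112 CPM in the Selk-/- labelled libraries. The knockout was therefore not visible as a clear reduction of Selenok counts. Totals per gene can miss a deletion of part of a gene, so the genotype could not be settled from them. Directions are given between labels. The 10 defining microglia markers, Csf1r and P2ry12 among them, had counts in each library and summed to 24600.0 to 25105 CPM in WT and 20309.9 to 21374 CPM in the Selk-/- labelled libraries. Small nucleolar RNAs were at 46.0 and 54.9 CPM of the unscaled total in Selk-/- labelled replicates 2 and 3 and at 318 to 327 CPM in the other 4 libraries.

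Selk-/- labelled replicate 2 also stood apart from the other libraries in hormone transcripts of the anterior pituitary gland. Growth hormone, Gh, was at 4697 CPM there (120914 counts) and at 0 to 8 counts in each of the other 5 libraries. Prolactin, Prl, had 25336 counts there and 0 to 2 counts elsewhere. The pituitary transcription factor Pou1f1 had 268 counts against 0 to 5. Cga, the subunit shared by the pituitary glycoprotein hormones, was at 0.3298, 179.9 and 5.13 CPM in Selk-/- labelled replicates 1 to 3 and at 0, 0.416 and 5.57 CPM in WT replicates 1 to 3. Pomc, the hormone precursor of corticotropes and melanotropes, was at 48.8 CPM in Selk-/- labelled replicate 2 and at 35.9 CPM in WT replicate 3, against 2.34 to 4.43 CPM in the other 4. A list of 16 pituitary genes, drawn up after these values were seen, summed to 6029.8 CPM in Selk-/- labelled replicate 2, 46.9 CPM in WT replicate 3, 13.1 CPM in Selk-/- labelled replicate 3 and 3.37 to 5.57 CPM in the other 3. In that list 0 genes were without counts in Selk-/- labelled replicate 2, and 4 to 10 were without counts in each other library. The part of this in the results on neutrophil genes was not tested.

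Neutrophil genes of every stage had their highest values in Selk-/- labelled replicate 2, with Csf3r as the exception. Of the 32 genes, 31 had their highest CPM in that library, and 29 were at least 2-fold above the highest of the other 5 libraries. Across the 21883 genes with at least 3 counts in that library, 557 reached that mark, or 2.55%. At 4-fold, 20 of the 32 genes passed, against 0.708% of all genes. The 3 genes short of 2-fold were Csf3r, Pglyrp1 and Ccr2, and the genes nearest to the mark were Plac8 at 2.002 and Ly6c2 at 2.08 inside it and Ccr2 at 1.41 outside it. None of the 32 genes was 2-fold above all other libraries in WT replicates 1, 2 or 3, where 1.61%, 0.401% and 0.248% of genes were, or in Selk-/- labelled replicates 1 or 3, where 0.309% and 0.88% were. That library was named for inspection with earlier results of these data known, so these counts describe 1 library and carry no test.

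Together the 32 genes took 0.786% of all counts in Selk-/- labelled replicate 2, and 0.0955% to 0.188% in the other 5. The 29 granulocyte genes summed to 1217, 927 and 1795 CPM in WT replicates 1 to 3. The corresponding sums of the Selk-/- labelled replicates were 906, 7779.9 and 1751 CPM. The sum in Selk-/- labelled replicate 2 was 4.33 times that of the next library, WT replicate 3. Without Csf3r and Pglyrp1, both short of 2-fold, it was 5.18 times, with sums of 547 to 1427 CPM in the other 5. More cells of a type and more RNA per cell cannot be told apart in such totals.

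**Figure D1:**
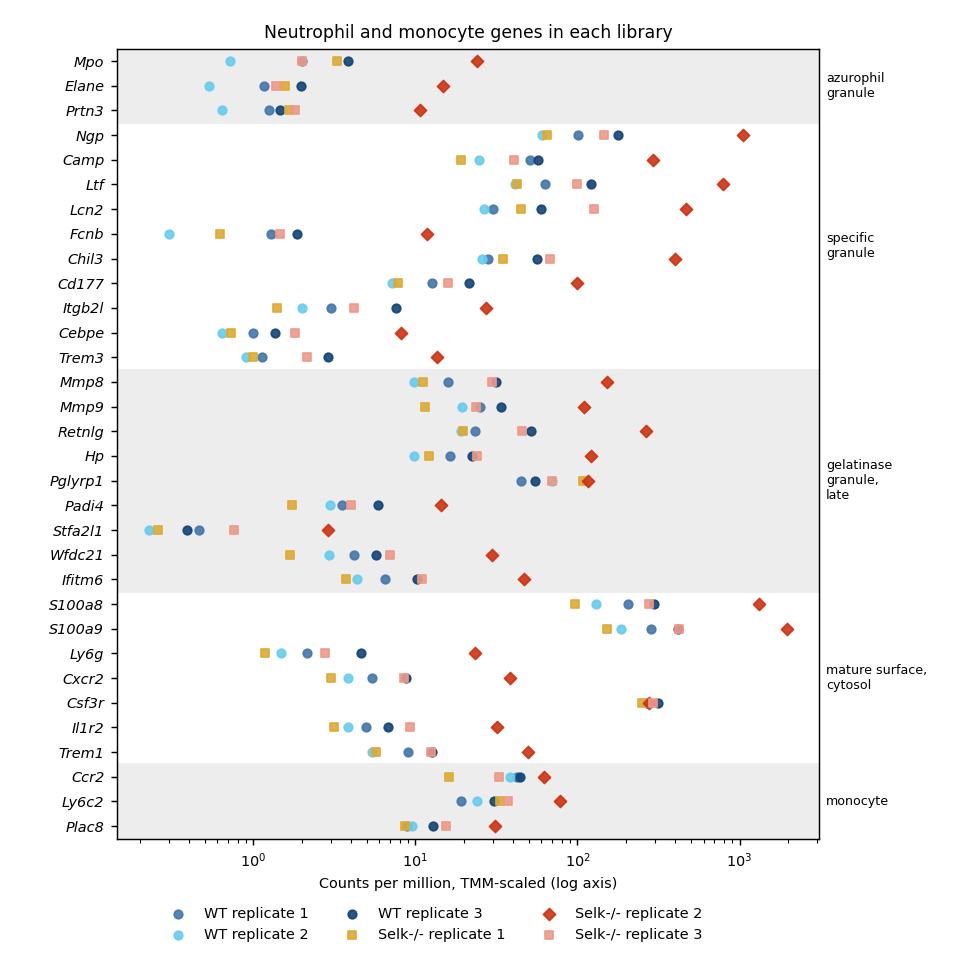
CPM (log axis) of the 32 genes in the 6 libraries, 1 point per library, grouped by role. Replicate 2 labelled Selk-/- (red diamonds) lies to the right of the other libraries in 31 of 32 rows, and Csf3r is the exception.

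The azurophil granule genes mark the promyelocyte, a cell of the marrow. Mpo (chromosome 11, 87684407 to 87695239 in the deposited table, whose build is not named) encodes myeloperoxidase, which makes hypochlorous acid. WT replicates 1 to 3 held 1.99, 0.718 and 3.85 CPM, and the Selk-/- labelled replicates 1 to 3, always in this order, held 3.26, 24.1 and 1.99 CPM. Elane (chromosome 10, 79722081 to 79724049), neutrophil elastase, had 1.17, 0.529 and 1.96 CPM in WT against 1.58, 14.8 and 1.38 CPM under the Selk-/- label. Its neighbour Prtn3 (chromosome 10, 79710310 to 79719008), the related protease 3, had 1.24, 0.643 and 1.46 against 1.65, 10.7 and 1.803 CPM in the same order. In all of these genes Selk-/- labelled replicate 2 was far above the rest, by 5.92 to 7.52 times the next library, while the other 5 libraries mixed the genotypes, apart from Prtn3, whose 3 values labelled Selk-/- lay above those of WT by as little as 1.65 against 1.46 CPM. Mpo overlaps an unnamed gene and Prtn3 overlaps Plppr3 on the opposite strand, and since the sources used here do not say how strand was handled, their counts are uncertain.

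The specific granule genes, made by myelocytes, were higher in that library by similar factors. The 10 genes were 3.61 to 6.49 times the next library, with a median of 4.94, against 5.92 to 7.52 and a median of 6.26 for the 3 azurophil genes. Ngp (chromosome 9, 110248815 to 110252080), a granule protein of the cathelicidin family, had 101, 60.7 and 177 CPM in WT against 64.4, 1049.7 and 146 CPM under the Selk-/- label. Ltf (chromosome 9, 110848339 to 110871835), the iron-binding lactoferrin, had 63.00, 41.2 and 122 CPM and 42.1, 791 and 99.8 CPM, and Camp (chromosome 9, 109676447 to 109678685), the cathelicidin antimicrobial peptide, had 51.2, 24.8 and 57.2 against 19.2, 294 and 40.3 CPM. WT replicate 3 was second in each of these 3 genes, and Selk-/- labelled replicate 1 and WT replicate 2 were the lowest pair. Per length, on the deposited FPKM scale, Ngp was the most abundant granule transcript of Selk-/- labelled replicate 2 (724 FPKM), above Lcn2 (404), Camp (327) and Ltf (245), whereas Mpo, Prtn3 and Elane were at 7.75, 9.21 and 12.6 FPKM.

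The remaining specific granule genes covered a wide range of abundance and had the same leading library. Chil3, a chitinase-like secreted protein, had 399.6 CPM there against 25.6 to 67.7 CPM in the other 5. Cd177, a neutrophil surface glycoprotein, had 99.4 against 7.22 to 21.3 CPM. The integrin subunit Itgb2l had 27.3 against 1.39 to 7.56 CPM. These 3 genes kept the library far outside the range of the rest. At the low end stood Fcnb, a ficolin that can start the lectin pathway of complement (11.7 against 0.302 to 1.86 CPM), the receptor Trem3 (13.7 against 0.907 to 2.89 CPM) and Cebpe (8.12 against 0.643 to 1.803 CPM), the transcription factor that drives terminal granulocyte differentiation. Chil3 has close relatives in the mouse genome and Itgb2l overlaps an unnamed gene, so both counts are uncertain.

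Promoters are shown for the azurophil gene and the 2 specific granule genes with the highest CPM in that library, because these genes were high together. The sequences are the 250 bases before the RefSeq start on GRCm38.p6, 5′ to 3′ on the gene's own strand, and capitals mark matches to TTGCNNA, the core of the element bound by C/EBP factors, or to GAGGAA, the core bound by PU.1, on either strand. They lie at chr11:87793534-87793783 (Mpo), chr9:110419558-110419807 (Ngp) and chr9:111019042-111019291 (Ltf), each on the forward strand.
Mpo: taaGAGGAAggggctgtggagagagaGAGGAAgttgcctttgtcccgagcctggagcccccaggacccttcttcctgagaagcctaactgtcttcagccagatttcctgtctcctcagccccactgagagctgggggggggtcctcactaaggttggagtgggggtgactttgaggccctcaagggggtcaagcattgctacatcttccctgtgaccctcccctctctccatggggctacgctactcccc
Ngp: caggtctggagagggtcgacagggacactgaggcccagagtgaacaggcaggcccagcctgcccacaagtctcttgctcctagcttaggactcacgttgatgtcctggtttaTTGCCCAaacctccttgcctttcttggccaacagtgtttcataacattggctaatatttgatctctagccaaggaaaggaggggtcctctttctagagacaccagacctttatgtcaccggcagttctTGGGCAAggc
Ltf: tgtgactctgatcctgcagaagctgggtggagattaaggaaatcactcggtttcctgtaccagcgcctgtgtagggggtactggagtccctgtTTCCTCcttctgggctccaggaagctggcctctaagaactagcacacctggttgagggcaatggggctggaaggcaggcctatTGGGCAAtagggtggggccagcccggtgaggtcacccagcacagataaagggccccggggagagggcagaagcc
Mpo held 2 matches to GAGGAA, Ngp 2 matches to TTGCNNA and Ltf 1 match to each. The table of promoters held 27 of the 32 genes and lacked Cebpe, Trem3, Mmp9, Hp and Wfdc21. GAGGAA was found in 17 of these 27 (63.0%) and in 23.1% of 27025 promoters of the same length, and TTGCNNA in 11 of 27 (40.7%) and in 33.0% of all. The matches are letters only and show no binding.

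Genes of gelatinase granules and of late maturation followed, with 8 of 9 at least 2-fold above the next library. Mmp8, the neutrophil collagenase, had 15.8, 9.79 and 31.2 CPM in WT against 11.1, 153 and 29.6 CPM under the Selk-/- label. Retnlg, a resistin-like secreted protein, had 23.5, 19.1 and 51.7 against 19.7, 267 and 45.3 CPM. Mmp9, gelatinase B, had 25.1, 19.3 and 33.8 against 11.5, 109.7 and 23.7 CPM, the smallest factor of the 3 at 3.25 times the next library. The haemoglobin scavenger Hp (5.003 times), the interferon-inducible membrane protein Ifitm6 (4.23), the small whey acidic domain protein Wfdc21 (4.31), the cysteine protease inhibitor Stfa2l1 (3.79) and Padi4 (2.46), which citrullinates histones when chromatin is expelled, completed this group. Stfa2l1 rested on 74 counts in the leading library and 6 to 16 in the others, and it has near-identical copies, so its value is uncertain.

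Pglyrp1, a peptidoglycan-binding granule protein, departed from this order. It had 45.04, 69.6 and 54.8 CPM in WT against 109, 115 and 69.7 CPM under the Selk-/- label. Replicates 1 and 2 labelled Selk-/- were close together and above the rest, although Selk-/- labelled replicate 1 was the lowest or second lowest library for 23 of the 29 granulocyte genes. The third library labelled Selk-/- was level with WT replicate 2.

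Genes of the mature neutrophil were high together with the granule genes in Selk-/- labelled replicate 2. S100a9 and S100a8, the subunits of calprotectin, led the group. S100a9 was at 285, 185 and 419.6 CPM in WT against 153, 1966 and 422 CPM under the Selk-/- label, and S100a8 at 204, 129 and 299 against 96.9, 1325 and 275 CPM. At 3229 and 2296 FPKM they had the highest levels per length of the 32 genes in that library. Ly6g, the surface marker used to identify mouse neutrophils, had 2.13, 1.47 and 4.64 CPM in WT against 1.17, 23.5 and 2.75 CPM under the Selk-/- label, and Cxcr2, the chemokine receptor that draws neutrophils into tissue, had 5.43, 3.82 and 8.71 against 3.005, 38.3 and 8.54 CPM. The decoy receptor Il1r2 and the activating receptor Trem1 were 3.46 and 3.92 times the next library. Excluding Csf3r, the 6 genes of this group were 3.46 to 5.06 times the next library, beside 5.92 to 7.52 for azurophil genes. Granule-stage and mature genes were therefore both high in the same library. Over the next library, the factors of the 3 azurophil genes were above those of the 6 mature genes. Over the median of the other 5 libraries the stages overlapped. Azurophil genes were 7.30 to 12.1 times that median, specific granule genes 7.29 to 12.6 times and Ly6g 11.02 times. Ly6g has close paralogs, and Il1r2 and Trem1 overlap other genes, so these counts are uncertain.

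Csf3r, the receptor for the granulocyte growth factor G-CSF, was the only gene of the 32 that did not peak in Selk-/- labelled replicate 2. It had 268, 268 and 314 CPM in WT against 249.7, 278 and 294 CPM under the Selk-/- label, a range of 1.26-fold over the other 5 libraries where Ly6g spanned 3.96-fold. Its level did not follow that of the other neutrophil genes.

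**Figure D2:**
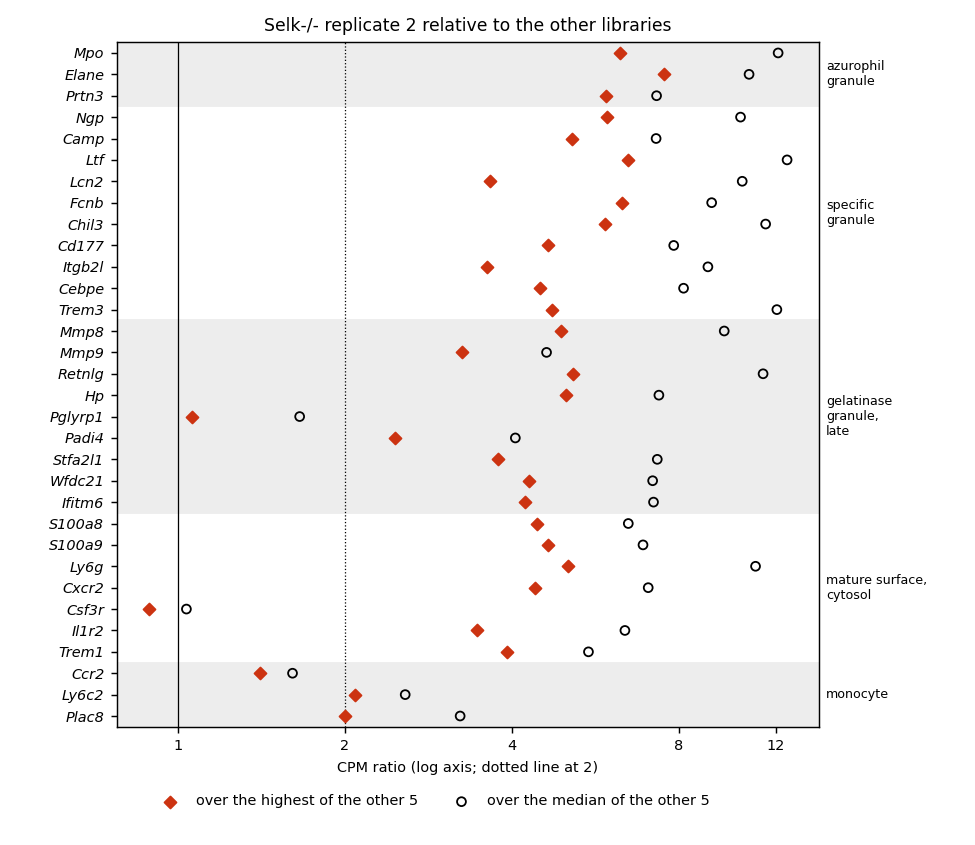
Ratio of CPM in Selk-/- labelled replicate 2 to the highest (red diamonds) and to the median (open circles) of the other 5 libraries, on a log axis, by gene and role. The 3 azurophil genes lie at 5.92 to 7.52 times the next library, and Csf3r, Pglyrp1 and Ccr2 lie left of the dotted line at 2.

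The proportions between stages within each library were then compared, since these do not depend on scaling between libraries. Mpo, Elane and Prtn3 together had 9.004, 6.01 and 10.1 counts per 1000 counts of S100a8 and S100a9 in WT replicates 1 to 3. In the Selk-/- labelled libraries they had 26.00 (95% interval 22.3 to 30.2), 15.1 (95% interval 14.2 to 15.9) and 7.42 (95% interval 6.09 to 8.95), with exact binomial intervals that cover counting error only. Replicate 1 labelled Selk-/-, which held the fewest S100a8 counts, had the highest share of azurophil counts, above replicate 2. Ngp, Camp and Ltf together had 649 counts per 1000 in Selk-/- labelled replicate 2 and 403 to 504 in the other 5, so specific granule transcripts were also more frequent there relative to the S100 genes. The surface genes Cxcr2, Il1r2, Trem1 and Ly6g stayed between 43.6 and 52.3 counts per 1000 in all 6 libraries, although the S100 counts themselves spanned 6808 to 84705. Mmp8, Mmp9 and Retnlg ranged from 132 to 169.5.

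Lcn2, a lipocalin that withholds iron from bacteria by binding their siderophores, was set against the S100 genes in the same way. It was at 30.2, 26.5 and 59.7 CPM in WT against 44.6, 465 and 127 CPM under the Selk-/- label. Relative to 1000 counts of S100a8 and S100a9 it had 61.8, 84.1 and 83.2 in WT and 179, 141 and 183 in the Selk-/- labelled libraries. The ratios did not overlap between genotypes, and the library with the most neutrophil counts had the smallest of the 3 labelled Selk-/-. This was not particular to Lcn2. Other members, such as Chil3, Prtn3, Hp and Cebpe, also did not overlap between genotypes when set against S100a8 and S100a9. The Lcn2 ratio was singled out after its values were seen and was not tested. S100a8 per 1000 counts of S100a9 did not overlap either, at 697 to 716 in WT and 635 to 674 in the Selk-/- labelled libraries. That ratio was not tested either. On the CPM scale, the Selk-/- labelled libraries lay above all WT libraries in 12.5% of all genes and below them in 13.7%. No such share was obtained for ratios. Astrocytes and endothelial cells are also known to make Lcn2 during inflammation.

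**Figure D3:**
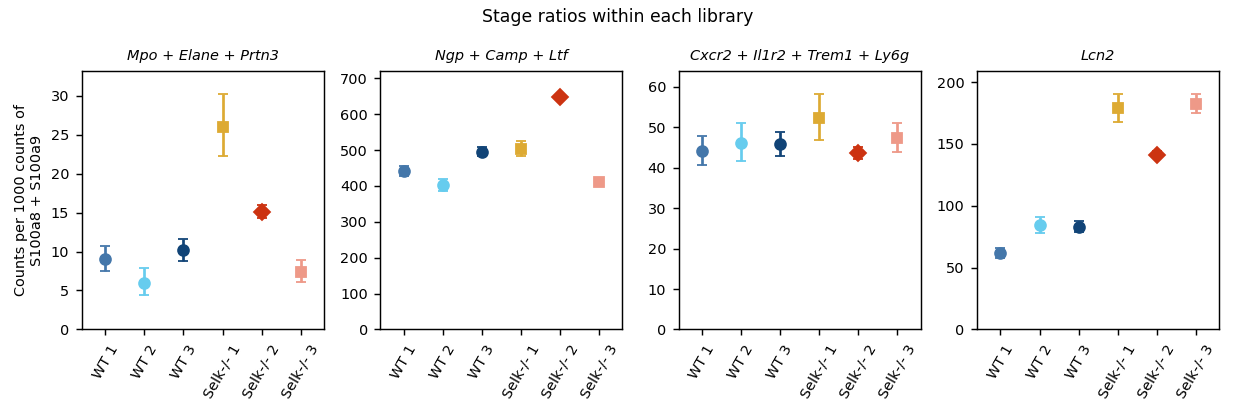
Counts of 4 gene groups per 1000 counts of S100a8 plus S100a9 in each library, with exact binomial 95% intervals that cover counting error only. The surface genes stay at 43.6 to 52.3, the azurophil share is highest in Selk-/- labelled replicate 1 at 26.00, and the Lcn2 share is higher in the 3 Selk-/- labelled libraries.

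The other 5 libraries also differed among themselves, and the granulocyte genes other than Prtn3 and Pglyrp1 mixed the genotypes there. Among these 5, the highest CPM lay in WT replicate 3 for 18 of the 29 granulocyte genes, in Selk-/- labelled replicate 3 for 10 and in Selk-/- labelled replicate 1 for 1, Pglyrp1. The lowest library was WT replicate 2 for 16 of them, Selk-/- labelled replicate 1 for 12 and WT replicate 1 for 1. WT replicate 3 and Selk-/- labelled replicate 3 are also the libraries whose titles carry 2 numbers and whose Cga values follow that of Selk-/- labelled replicate 2. With both left out, the number of genes 2-fold highest in Selk-/- labelled replicate 2 was again 29 of 32. Leaving out reference libraries cannot lower this number, so it is no check on them.

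The 3 monocyte genes had smaller factors in that library. Ly6c2, the surface marker of inflammatory monocytes, had 19.1, 23.9 and 30.4 CPM in WT against 33.2, 78.2 and 37.5 CPM under the Selk-/- label. Plac8, a small cysteine-rich protein of myeloid cells, had 8.91, 9.57 and 12.9 against 8.58, 30.9 and 15.4 CPM. Ccr2, the receptor for Ccl2, had 42.2, 38.5 and 44.03 against 16.1, 61.9 and 32.98 CPM. The sum of the 3 in Selk-/- labelled replicate 2 was 1.96 times the next library, whereas the sums of azurophil and specific granule genes were 6.81 and 6.23 times. Per 1000 counts of S100a8 and S100a9, monocyte counts were 51.97 in that library and 122 to 232 in the others. Ccr2 was lowest in Selk-/- labelled replicate 1, while Ly6c2 was lowest in WT replicate 1, so the monocyte genes did not share an order either. Ly6c2 has near-identical relatives, and its count is uncertain.

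Between genotypes, none of the 32 genes passed the edgeR test. With edgeR's quasi-likelihood test and Benjamini-Hochberg adjustment over 17739 genes, 0 of the 32 passed an adjusted p of 0.05, and 0% of all genes did, while DESeq2 called 972 genes and 3383 genes had an edgeR unadjusted p under 0.05. At an unadjusted p under 0.05, 3 of the 32 were higher in the Selk-/- labelled libraries (Prtn3, Pglyrp1 and Ly6c2), where 9.34% of all genes were. The 3 Selk-/- labelled libraries lay above all WT libraries in the same 3 genes, against 12.5% of all genes, and below them in 0 genes, against 13.7%. Both shares of the members are near or under the background. DESeq2 called 1 of the 32 higher, Pglyrp1, and gave no adjusted p for Prtn3, Fcnb, Cebpe and Stfa2l1. It called 1.5% of the 33365 genes with a p-value higher. That total includes genes without an adjusted p, which could not be called, so the share is a low estimate.

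The spread between the Selk-/- labelled libraries was wide. S100a8 had 211 ± 84.8 CPM over the WT libraries (SD, n = 3) and 566 ± 663 CPM over the Selk-/- labelled libraries (SD, n = 3). On the log2 scale this was 1.43 with an SE of 1.05 and a 95% interval of -1.31 to 4.17 (edgeR adjusted p = 0.516). Ngp had 113 ± 58.9 CPM over the WT libraries (SD, n = 3) and 420.1 ± 547 CPM over the Selk-/- labelled libraries (SD, n = 3), which gave 1.89 on the log2 scale (SE 1.21; edgeR adjusted p = 0.461). For Mpo the log2 fold change was 2.16 (SE 1.16; edgeR adjusted p = 0.3796), and Lcn2 had the largest of the 32 at 2.45 (SE 0.987; edgeR adjusted p = 0.281). In each of these 4 genes the SD of the Selk-/- labelled libraries exceeded the difference of the means, and replicate 2 was the highest of the 3. Of the 32 genes, 30 had a log2 fold change above 0, with a median of 1.58 beside -0.0082 over all genes tested. Without Selk-/- labelled replicate 2, 17 genes were above 0 and 15 below, with a median of 0.013, S100a8 at -0.16, Ngp at -0.088 and Mpo at 0.29. Of the 32 genes, 13 changed sign without that library and 19 kept theirs.

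Pglyrp1 depended less on Selk-/- labelled replicate 2. Pglyrp1 had 56.5 ± 12.4 CPM over the WT libraries (SD, n = 3) and 97.99 ± 24.7 CPM over the Selk-/- labelled libraries (SD, n = 3), with a log2 fold change of 0.80 (SE 0.237, 95% interval 0.22 to 1.37; edgeR adjusted p = 0.166, DESeq2 adjusted p = 0.00416). Without Selk-/- labelled replicate 2 it was 0.68 (edgeR adjusted p = 0.299). Lcn2 fell from 2.45 to 1.16 and Ly6c2 from 1.02 to 0.55 without that library (edgeR adjusted p without it = 0.402 and 0.267). None of these genes passed the edgeR threshold with or without that library. Csf3r was at -0.050 (95% interval -0.27 to 0.17), the narrowest interval of the 32, and Ccr2 was at -0.17, or -0.75 without that library (edgeR adjusted p = 0.876 and 0.323).

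**Figure D4:**
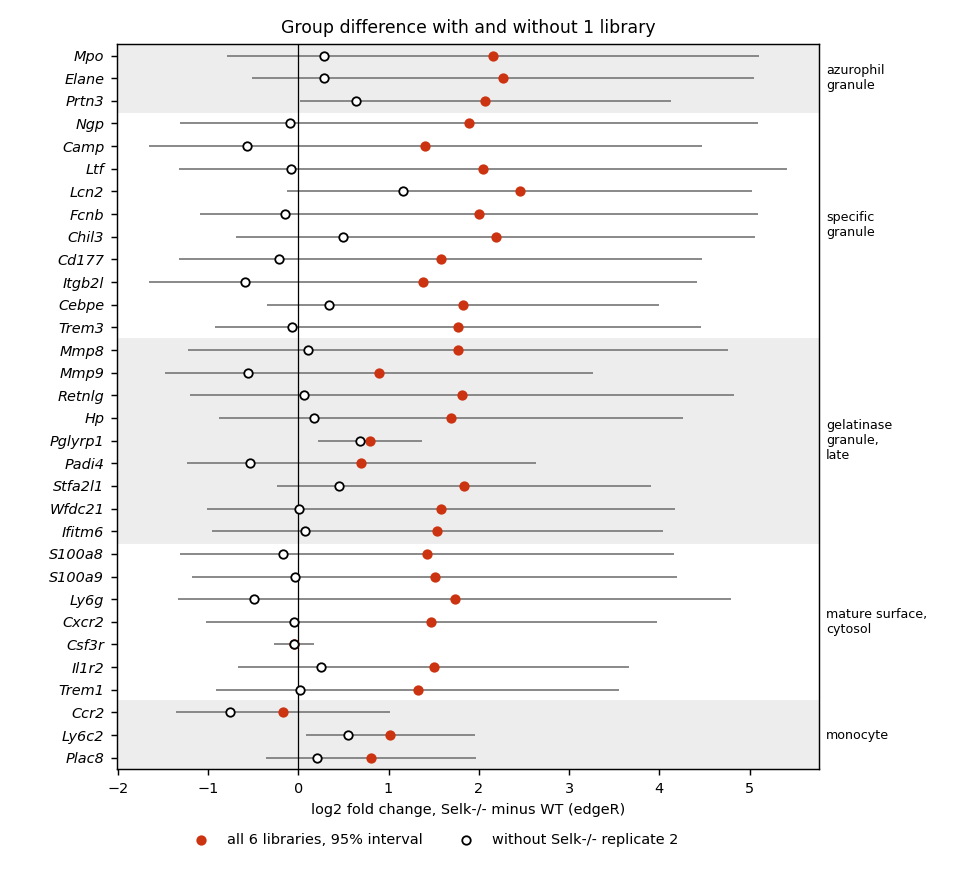
log2 fold change of each gene between Selk-/- labelled libraries and WT, from edgeR with all 6 libraries (red, with 95% interval) and without Selk-/- labelled replicate 2 (open circles). With all libraries 30 of 32 lie above 0, and without that library 17 do.

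Other genes of the same cells were read from lists that are not part of the 32. Of 20 further genes of mature neutrophils found in the table, 16 were at least 2-fold highest in Selk-/- labelled replicate 2, against 2.55% of all genes. The formyl peptide receptor Fpr2 was at 28.4 CPM there and 2.05 to 6.45 CPM in the other 5. The receptor Mrgpra2b had 10.7 against 0.586 to 1.52 CPM, the largest factor of this list, followed by its neighbour Mrgpra2a. Alox5ap and Anxa1, also made by other myeloid cells, were 1.105 and 2.13 times the next library. Of 7 further genes of early granulocytes, 4 were at least 2-fold highest there. Ctsg, the azurophil protease cathepsin G, had 5.399 against 0.492 to 0.892 CPM, and Ms4a3, a marker of granulocyte and monocyte progenitors, had 5.05 against 0.227 to 0.928 CPM. Cebpa, which microglia also express, and the progenitor factor Myb were 0.972 and 0.812 times the highest other library. Of 17 further monocyte genes, 3 passed, among them F10 (3.300 times) and Gpr141 (2.75 times), while Fn1 and F13a1, which macrophages also express, were 0.675 and 0.817 times. With edgeR, 0 genes of these lists passed an adjusted p of 0.05.

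Markers of other blood and marrow cells did not all move with the neutrophil genes. Erythroid genes summed to 217 against 101 to 168 CPM in the other 5, with Hba-a1 and Hbb-bs, the globins, at 1.65 and 1.28 times the next library and the erythroid factor Klf1 at 1.91 times on 7 counts. Car2, also made in brain, was 0.835 times, and 0 of the 10 erythroid genes with at least 3 counts there were 2-fold highest. Platelet genes summed to 18.4 against 21.6 to 24.2 CPM, below every other library, with Gp9 at 0.608 and Gp1ba at 0.539 times the highest other library. Their largest factors were those of Gp6 (1.03, 3 counts) and Ppbp (0.891). Among B cell precursor genes, Rag2 and Vpreb2 were without counts in all 6 libraries, Rag1 was 1.27 and Vpreb1 0.985 times the next library, and Ebf1 and Il7r were 0.806 and 0.4898 times. B cell genes, led by Ighm, summed to 158 against 152 to 237 CPM, with Cd79b at 0.717 times the highest other library. T and NK cell genes, with Cd4 and Gzma at the highest CPM, summed to 14.8 against 9.27 to 18.6 CPM, inside the range of the others, and their largest factors were 1.22 for Ncr1 and 1.11 for Nkg7. Border macrophage genes such as Mrc1 summed to 702 against 349 to 1091 CPM. Dendritic cell genes summed to 901 against 802 to 975 CPM, so both lay inside the range of the others. By genotype, border macrophage sums were 349 to 702 CPM under the Selk-/- label and 755 to 1091 CPM in WT. In that order, dendritic sums were 802 to 901 and 935 to 975 CPM. B cell sums were 152 to 163 and 196 to 237 CPM. Cell cycle sums went the other way, at 369 to 479 and 327 to 349 CPM. These sums were not tested. Of the dendritic list, Zbtb46 was 1.37, Clec9a 0.995, Siglech 0.922 and Cd209a 0.657 times the highest other library. Basophil, mast cell and eosinophil genes were the exception, with 4 of 8 at least 2-fold highest (Cpa3, Mcpt8, Ms4a2 and Fcer1a) on levels of 1.09 to 3.26 CPM, and Prg2 and Siglecf at 1.84 and 0.621 times. Among 14 cell cycle genes Mki67 (2.07 times) and Rrm2 (2.04 times) passed, with Hmgb2 at 1.498 and Pcna at 1.03 times. With edgeR, 0 genes of these lists passed an adjusted p of 0.05.

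Some ligands and adhesion molecules that recruit neutrophils had their highest values in Selk-/- labelled replicates 2 and 3. Csf3 encodes G-CSF, which drives neutrophil production, and had 0.248, 0.378 and 0.285 CPM in WT against 0.5497, 9.01 and 4.03 CPM under the Selk-/- label. Sele, the E-selectin of activated endothelium, had 1.67, 1.36 and 2.14 against 1.796, 49.2 and 14.9 CPM, and Selp, P-selectin, had 0.958, 0.794 and 0.892 against 0.989, 9.36 and 2.89 CPM. All 3 genes were low in WT and in Selk-/- labelled replicate 1 and raised in the 2 libraries with low small nucleolar RNA counts. Their log2 fold changes were 3.88, 3.67 and 2.32 (edgeR adjusted p = 0.143, 0.221 and 0.206), short of the threshold. The neutrophil chemokine Cxcl1 had 22.6, 24.95 and 22.01 against 28.3, 63.4 and 50.02 CPM. Il1b was 2-fold highest in Selk-/- labelled replicate 2 (416 against 108 to 197 CPM), and Cxcl5 was 2.46 times the next library on 9 counts. Cxcl12, which holds neutrophils in the marrow, and the cytokines Tnf and Ccl2 were 0.661, 1.48 and 1.35 times the highest other library, Il1a 1.68 times, and the adhesion genes Icam1 and Selplg 1.11 and 0.855 times. Of the 13 ligands that passed the filter on low counts, 5 had an edgeR unadjusted p under 0.05 with a higher value in the Selk-/- labelled libraries, against 9.34% of all genes, and 0 passed after adjustment. Whether any of these genes bears on the neutrophil genes was not tested.

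Beyond the lists of blood, marrow and brain cells, pituitary genes had the largest ratios in Selk-/- labelled replicate 2. Of the 15 with at least 5 CPM and the largest ratio to the next library, Gh, Prl, Lhb, Fshb, Tshb and Cga encode pituitary hormones or their subunits and Pou1f1 a pituitary transcription factor. Scg2 and Scg5 are secretogranins of hormone granules, Pcsk1 processes prohormones and Resp18 is an endocrine secretory protein, and these 4 genes were 8.78 to 14.8 times the next library. The others were Dlk1, Elapor1, an IgG1 constant region gene and Dbpht2. Among the 50 genes with the largest ratios, of 11721 genes at this level, 16 were neutrophil genes of the 32.

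**Figure D5:**
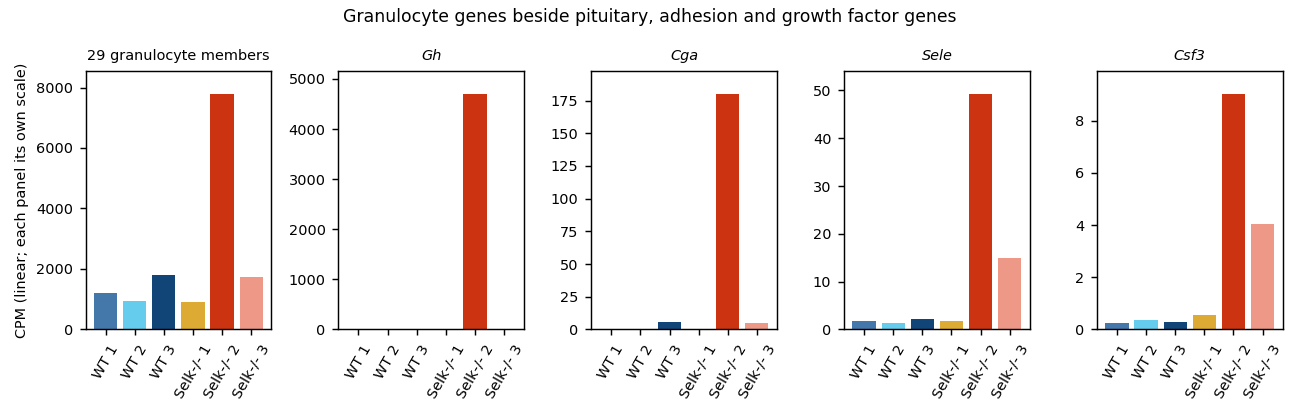
CPM in each library (linear axes that start at 0, a separate scale per panel) of the summed 29 granulocyte genes, the pituitary genes Gh and Cga, the endothelial selectin Sele and the growth factor Csf3. All 5 peak in Selk-/- labelled replicate 2, Cga is next highest in WT replicate 3 and Selk-/- labelled replicate 3, and Sele and Csf3 are next highest in Selk-/- labelled replicate 3.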

How the data were processed

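The authors' deposited table holds raw counts and FPKM (fragments scaled to gene length and library total) per gene for 6 libraries. Per the labels' protocols, reads were aligned with Hisat2 2.0.5 and quantified with stringtie 2.2.0, while the submitters' processing notes also name Bowtie 0.12.2, mm8 and mm9. The table names no build, and the sources used here give no rule for strand or multi-mapping reads. FPKM was used for levels per length and for an alternative fit.

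The test of counts was edgeR 4.0.16, run in R 4.3.3 (TMM, filterByExpr, robust quasi-likelihood fit, Benjamini-Hochberg adjustment over 17739 genes at 0.05, two-sided). Standard errors come from the F statistic. With 1 library, genes with at least 3 counts were described by their ratio to the highest of the other 5 libraries, with a reference of 0 counts set to 3 counts. Alternatives used DESeq2 1.42.0, limma 3.58.1 on log2(FPKM + 1) or log2(FPKM + 0.1), other scalings and filters, and fewer libraries. The edgeR step was tested on simulated data (17501 genes, 100 changed at each size) and recovered 61% of 2-fold and 84% of 4-fold changes, with 14 false calls. The simulated libraries of a group shared 1 mean per gene. These rates therefore do not apply to genes that are high in 1 library of a group. Within a group no library was a duplicate of another: pairs gave chi-square values of 14.8 to 48.3 divided by the degrees of freedom. Pairs between the groups were not compared.

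The members and lists were chosen with earlier results of these data known. All 32 members are named. From each other list, the 2 genes with the highest mean CPM and the 2 with the highest ratio in Selk-/- labelled replicate 2 were named, with others chosen after their values were seen (Fpr2, Il1b, Tnf, Ccl2, Cxcl1, Mcpt8, Ms4a2, P2ry12, Rag2, Vpreb2, Cga, Pomc and Pou1f1). Outside these lists, the 15 genes with at least 5 CPM and the highest ratio there were named. The pituitary list was added after seeing the data. Some genes that this rule names are not reported here, and genes of the lists that matched no row were not analysed here.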

Additional observations from a re-analysis of the deposited data

How the results depend on the processing

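Genes past an adjusted p of 0.05 numbered 0 with edgeR, 92 with at least 10 CPM in 3 libraries, 972 with DESeq2 and 0 in the other scalings, filters and FPKM fits. With libraries left out there were 0 to 59, the 59 being without Selk-/- labelled replicate 1 and 1 without replicate 2. Of the 32 genes, 0 passed in each edgeR and limma fit and 1 passed with DESeq2. The number with a log2 fold change above 0 was 30, 17 of 19 with at least 10 CPM in 3 libraries, and 6 to 32 with libraries left out, the 6 being without Selk-/- labelled replicates 2 and 3. Without these and WT replicate 3, chosen after seeing the data and leaving 1 library labelled Selk-/-, it was 7; a lone library is assumed to vary like the others. The number of genes 2-fold highest in Selk-/- labelled replicate 2 was 29, and 20 to 29 under other folds, scalings, FPKM, reference libraries and a minimum of 10 counts. No paired analysis was possible because the replicate numbers only name the libraries and the labels pair none of them. The cause of these differences was not tested.

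With libraries left out, log2 fold changes that changed sign ranged over -0.79 to 2.42 for Ngp, -1.19 to 1.93 for Camp, -0.82 to 2.58 for Ltf, -0.86 to 2.54 for Fcnb, -0.060 to 2.68 for Chil3, -0.80 to 2.08 for Cd177, -1.57 to 2.13 for Itgb2l, -0.43 to 2.33 for Cebpe, -0.71 to 2.46 for Trem3, -0.75 to 2.34 for Mmp8, -1.16 to 1.37 for Mmp9, -0.65 to 2.38 for Retnlg, -0.38 to 2.18 for Hp, -1.24 to 1.17 for Padi4, -0.47 to 2.34 for Stfa2l1, -1.32 to 2.12 for Wfdc21, -0.89 to 2.05 for Ifitm6, -1.10 to 1.94 for S100a8, -0.94 to 2.02 for S100a9, -1.21 to 2.35 for Ly6g, -0.97 to 1.98 for Cxcr2, -0.16 to 0.039 for Csf3r, -0.70 to 1.99 for Il1r2, -0.64 to 1.80 for Trem1, -1.35 to 0.20 for Ccr2, -0.27 to 1.16 for Plac8. The scaling, filter, DESeq2 and FPKM fits turned 0 signs among the genes they tested. Depth limits genes such as Stfa2l1, Cebpe, Fcnb and the azurophil genes, with 6 to 108 counts outside Selk-/- labelled replicate 2.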
